A study of Homo sapiens with 6 samples.

Results

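YAP1 (YAP) and WWTR1 (TAZ), the transcriptional coactivators at the end of the Hippo pathway, were followed together with 8 genes that are widely used as their targets (CTGF, CYR61, ANKRD1, AMOTL2, AJUBA, LATS2, FJX1 and IGFBP3). Their rows were taken from the deposited table by symbol, and all 10 were found among its 12982 genes. The list itself was drawn up with earlier results of these data known, so its counts are a description of these genes. In the Hippo pathway the kinases STK3 and STK4 activate LATS1 and LATS2, which phosphorylate YAP and TAZ and so keep them in the cytoplasm or mark them for degradation. Unphosphorylated YAP and TAZ enter the nucleus and bind TEAD transcription factors on DNA, and several of the genes they switch on encode inhibitors of the same pathway. In the intestinal epithelium YAP is known for its role in regeneration after injury and in colorectal tumours. The table holds RNA only, so the phosphorylation and location of YAP and TAZ were not measured in it.

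The libraries came from SW480, an established human colorectal adenocarcinoma cell line grown in culture. MPM-1 is a small molecule made as a mitochondrial probe, and its libraries are labelled WT4. One group of 3 libraries was treated for 24 h with MPM-1 and the other group of 3 libraries with DMSO, the solvent, and the genotype of all 6 is given as wild type. The dose of MPM-1 used for sequencing is not given in the sources used here, and neither is whether the 3 libraries of a group came from separate cultures, so the p-values below measure the spread between these libraries.

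Library totals ran from 32095456 to 40269820 counts in DMSO and from 31733667 to 35403841 counts in MPM-1. Of all genes, 3596 rose and 3740 fell, which is 49.0% of calls upward, or 34.7% when libraries were scaled by their total alone. Over all genes the log2 fold change had a median of -0.03 as scaled here and -0.18 with totals alone. All 10 markers of colorectal epithelium were in the table, with a summed level of 8368 to 9750 CPM (read counts scaled to the size of the library) in DMSO and 12228 to 13761 CPM in MPM-1. KRT8 (means of 4096 CPM in DMSO and 5473 CPM in MPM-1), KRT18 (1874 and 3482 CPM) and KRT19 (1644 and 3050 CPM) held most of this sum. Of the 10, 4 rose (KRT8, KRT18, KRT19 and CDH1), 5 fell and EPCAM did not pass, beside 27.7% and 28.8% of all genes. The 5 were CDX2 (log2 fold change -2.20), KRT20 (-2.03), LGR5 (-1.75), CDX1 (-0.98) and VIL1 (-0.88). The call of LGR5, at a mean of 3.09 CPM in DMSO, was lost without DMSO replicate 2 or 3. Of 10 markers of fibroblasts, endothelium and blood cells only COL1A1, PDGFRB and CD68 were in the table, and their summed level was 62.8 to 90.8 CPM in DMSO and 139 to 155 CPM in MPM-1, mostly from CD68. COL1A1 and PDGFRB had means of 2.97 and 2.19 CPM in DMSO. The other markers of that list, COL1A2, COL3A1, DCN, PECAM1, VWF, PTPRC and CD3E, were not among the genes of the table. Its lowest total of a gene over the 6 libraries was 115 counts.

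A gene is said here to rise or fall where its adjusted p was under 0.05 in edgeR's quasi-likelihood fit over all 12982 genes. By that threshold 4 of the 10 genes rose (YAP1, CTGF, CYR61 and IGFBP3), against 27.7% of all genes, and 3 fell (WWTR1, AJUBA and FJX1), against 28.8% of all genes. Under a stricter rule, which asked for an adjusted p under 0.01 and for 1 or more on the log2 scale, 3 were higher (CTGF, CYR61 and IGFBP3), against 5.58% of all genes, and 1 was lower (FJX1), against 8.75%. The scaled libraries of the treatments did not overlap for 7 of the 10, against 64.3% of all genes. ANKRD1, AMOTL2 and LATS2 did not pass the test. The median log2 fold change of the 10 genes was 0.24. In bulk RNA a change in the share of cells that carry a transcript and a change in its amount per cell cannot be told apart.

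**Figure D1:**
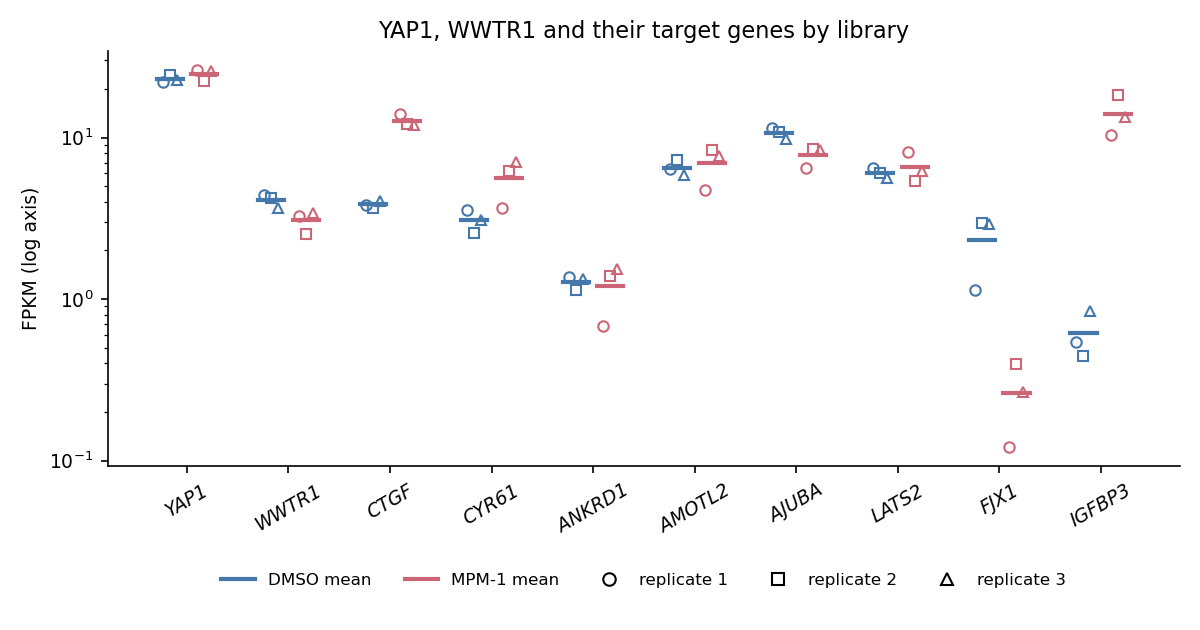
FPKM of the 10 genes (vertical log axis) in each of the 6 libraries, with 1 point per library, a horizontal line at the mean of each treatment, and DMSO and MPM-1 side by side for each gene. IGFBP3 moved from 0.445 to 0.848 FPKM in DMSO to 10.3 to 18.2 FPKM in MPM-1, FJX1 moved the other way, and on this scale the libraries of YAP1, ANKRD1, AMOTL2 and LATS2 overlapped between treatments.

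Promoter sequence was looked at because several of these genes are bound through TEAD factors, whose core motif is GGAATG. The 250 bases upstream of each RefSeq transcription start (build GRCh38.p14) were searched on both strands for GGAATG and for the AP-1 motif TGANTCA, and 9 of the 10 genes could be matched, CYR61 not. The CTGF promoter, on the minus strand at chr6:131951374-131951622, is shown because it held 3 copies of GGAATG, in capitals.
CTGF: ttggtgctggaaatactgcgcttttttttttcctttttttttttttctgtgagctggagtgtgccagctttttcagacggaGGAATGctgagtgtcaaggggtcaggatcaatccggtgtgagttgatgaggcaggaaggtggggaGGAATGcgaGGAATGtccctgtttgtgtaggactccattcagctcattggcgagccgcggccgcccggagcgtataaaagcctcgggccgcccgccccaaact
The copies lie at -169, -104 and -95 from the start, and at least 3 copies were found in 29 of 35116 promoter windows (0.0826%). The other matches are shown in windows of 30 bases around the motif, read in the direction of the gene, with the motif or its reverse complement in capitals.
ANKRD1 at -220, chr10:90921290-90921319, minus strand: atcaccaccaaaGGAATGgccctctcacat
ANKRD1 at -128, chr10:90921198-90921227, minus strand: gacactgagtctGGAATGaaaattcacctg
YAP1 at -162, chr11:102110273-102110302, plus strand: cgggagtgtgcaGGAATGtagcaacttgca
AMOTL2 at -69 of its other start, chr3:134374499-134374528, minus strand: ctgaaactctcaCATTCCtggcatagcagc
AJUBA at -59 of its other start, chr14:22976884-22976913, minus strand: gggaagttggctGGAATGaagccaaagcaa
The ANKRD1 match at -128 and those of AMOTL2 and AJUBA lie in an exon that GENCODE annotates for the same gene. The ANKRD1 window also held 1 AP-1 motif, at -195, which did not overlap a TEAD motif but reached into such an exon. Of all promoter windows, 11.9% held at least 1 GGAATG, 0.94% at least 2, and 6.57% at least 1 TGANTCA. No GGAATG was found in the windows of WWTR1, LATS2, FJX1 or IGFBP3, which says only that these letters are not in this stretch. The genes with a match were thus CTGF and YAP1, which rose, AJUBA, which fell, and ANKRD1 and AMOTL2, which did not pass the test.

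**Figure D2:**
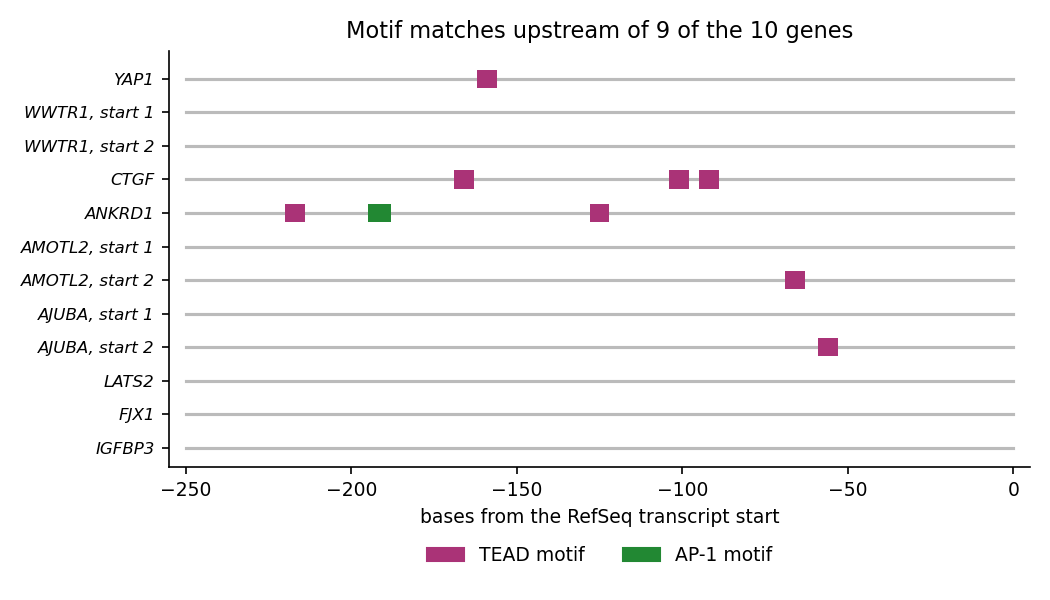
Positions of TEAD (GGAATG) and AP-1 (TGANTCA) motif matches in the 250 bases upstream of the RefSeq starts of 9 of the 10 genes, with the distance from the start in bases on the horizontal axis and 1 line per start. CTGF has 3 TEAD matches and ANKRD1 has 2 with 1 AP-1 match, while the lines of WWTR1, LATS2, FJX1 and IGFBP3 are empty.

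The coactivators themselves moved in opposite directions. YAP1 (ENSG00000137693, chr11:102110461-102233423, plus strand, GENCODE release 29), the founding effector of the pathway, was read at 117, 125 and 113 CPM in the DMSO libraries and at 154, 126 and 143 CPM in the MPM-1 libraries. The lowest MPM-1 library thus lay just above the highest DMSO library. YAP1 rose by a log2 fold change of 0.25 (SE 0.089, 95% interval 0.053 to 0.45, adjusted p = 0.0350 in edgeR). This is the least secure of the calls, since it was lost with totals alone (0.10, adjusted p = 0.331) and without DMSO replicate 1 or 3 or MPM-1 replicate 1 or 3, where the adjusted p lay between 0.0681 and 0.116. FPKM is scaled for transcript length and library size. In FPKM YAP1 was 23.0 ± 1.10 in DMSO and 24.9 ± 2.22 in MPM-1 (SD, n = 3) and the libraries overlapped.

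WWTR1 (ENSG00000018408, chr3:149517235-149736714, minus strand), which encodes the YAP paralog TAZ, was read at 21.2, 19.9 and 17.5 CPM in DMSO and at 14.4, 12.1 and 13.7 CPM in MPM-1. The groups did not overlap, with all of MPM-1 on the lower side. WWTR1 fell, with a log2 fold change of -0.54 (SE 0.13, 95% interval -0.83 to -0.25, adjusted p = 0.00559 in edgeR), to 0.686 of its DMSO level. On the log2(FPKM + 0.1) scale the difference was -0.41 and missed the threshold with limma (adjusted p = 0.0518). The paralogs can be set side by side per length. The ratio of WWTR1 to YAP1 in FPKM was 0.199, 0.174 and 0.162 in the DMSO libraries and 0.125, 0.113 and 0.131 in the MPM-1 libraries. The ratio was lower in every MPM-1 library, by 0.53 on the log2 scale, and the exact permutation test (two-sided) gave p = 0.1, the smallest value that 3 libraries against 3 allow. YAP1 was the most abundant of the 10 genes under both treatments, above 77.8% of all genes of the table in MPM-1, whereas WWTR1 was above 33.0%.

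Among the targets that act back on the pathway, AJUBA fell, while LATS2 and AMOTL2 did not pass the test. LATS2 (ENSG00000150457, chr13:20973032-21061547, minus strand), a kinase that phosphorylates YAP and TAZ and is itself a target of them, was read at 35.8, 32.0 and 29.9 CPM in DMSO and at 49.5, 31.8 and 37.5 CPM in MPM-1. MPM-1 replicate 1 was the highest and MPM-1 replicate 2 lay inside the DMSO range. The log2 difference was 0.28 (95% interval -0.06 to 0.62, adjusted p = 0.139 in edgeR), so folds from 0.961 to 1.54 lie within the interval. Without MPM-1 replicate 1 it was 0.11 (adjusted p = 0.470 in edgeR), and without MPM-1 replicate 2 it was 0.44 and passed (adjusted p = 0.0205 in edgeR). Its paralog LATS1 had a log2 difference of -0.01 (adjusted p = 0.966 in edgeR). The ratio of LATS2 to LATS1 in FPKM was 1.93, 1.91 and 1.64 in DMSO and 2.43, 1.51 and 1.87 in MPM-1, and the groups overlapped (exact permutation test, p = 1.0, the smallest possible being 0.1).

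AMOTL2 (ENSG00000114019, chr3:134355874-134375479, minus strand), an angiomotin family protein that holds YAP at cell junctions and in the cytoplasm, was read at 28.7, 31.5 and 25.6 CPM in DMSO and at 23.8, 39.6 and 37.5 CPM in MPM-1. MPM-1 replicate 1 was below all DMSO libraries and the other two MPM-1 libraries were above them. The log2 difference was 0.23 (95% interval -0.16 to 0.63, adjusted p = 0.282 in edgeR), with 0.45 without MPM-1 replicate 1 (adjusted p = 0.00725) and 0.13 without MPM-1 replicate 2 (adjusted p = 0.584). Its paralog AMOT had a log2 difference of -0.31 (adjusted p = 0.321 in edgeR).

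AJUBA (ENSG00000129474, chr14:22971174-22982642, minus strand), a LIM domain protein that binds LATS kinases and restrains them, was read at 48.1, 42.6 and 38.9 CPM in DMSO and at 25.5, 32.1 and 30.6 CPM in MPM-1. The groups did not overlap. AJUBA fell, with a log2 fold change of -0.56 (SE 0.12, 95% interval -0.81 to -0.30, adjusted p = 0.00267 in edgeR). Of the other members of its family, WTIP rose by 1.11 on the log2 scale (adjusted p = 0.00403 in edgeR) from a low level of 1.85 to 2.08 CPM in DMSO to 3.25 to 5.09 CPM in MPM-1. The log2 difference of LIMD1 was -0.12 (adjusted p = 0.424 in edgeR).

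The secreted targets held the rises of largest size. CTGF (CCN2, ENSG00000118523, chr6:131948176-131951373, minus strand), a matricellular protein and a standard readout of YAP activity, was read at 9.01, 8.31 and 9.21 CPM in DMSO and at 36.5, 30.2 and 30.7 CPM in MPM-1. The 3 libraries of each treatment lay close together and far from the other treatment. CTGF rose 3.67-fold (log2 fold change 1.88, SE 0.12, 95% interval 1.61 to 2.14, adjusted p = 2.70e-06 in edgeR). With each library left out in turn the log2 fold change stayed between 1.80 and 1.95.

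CYR61 (CCN1, ENSG00000142871, chr1:85580761-85583962, plus strand), the closest relative of CTGF among the targets and also a matricellular protein, was read at 8.25, 5.67 and 6.88 CPM in DMSO and at 9.35, 15.2 and 17.7 CPM in MPM-1. MPM-1 replicate 1 was only just above DMSO replicate 1, the highest of its group. CYR61 rose 2.03-fold (log2 fold change 1.02, SE 0.24, 95% interval 0.48 to 1.57, adjusted p = 0.00555 in edgeR). The library lowest for CYR61 was the highest for CTGF, so that the ratio of CTGF to CYR61 in FPKM was 3.84 in MPM-1 replicate 1, 1.95 in replicate 2 and 1.70 in replicate 3. In DMSO the same ratio was 1.07, 1.44 and 1.31. This ratio was chosen after its values were seen and was not tested. Of the other CCN genes only NOV (CCN3) was in the table, and it fell by 0.66 on the log2 scale. Its call was lost without DMSO replicate 2 or 3, with log2 fold changes of -0.82 to -0.56 over all alternatives.

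IGFBP3 (ENSG00000146674, chr7:45912245-45921874, minus strand), a secreted carrier of insulin-like growth factors, was read at 1.27, 1.04 and 2.01 CPM in DMSO and at 26.3, 44.8 and 33.4 CPM in MPM-1. In counts these were 42, 45 and 80 against 800, 1378 and 1121. IGFBP3 rose 24.1-fold (log2 fold change 4.59, SE 0.28, 95% interval of the fold 15.6 to 37.2, adjusted p = 2.20e-06 in edgeR). It went from above 5.48% of the genes of the table to above 66.4%. The other binding proteins in the table moved in both directions. IGFBP6 rose by 0.85 on the log2 scale, from 73.98 to 85.6 CPM in DMSO to 138 to 142 CPM in MPM-1. IGFBP2 fell, with a log2 fold change of -1.32, from 245 to 271 CPM to 94.0 to 114 CPM. IGFBP4 fell, with a log2 fold change of -0.77, from 485 to 568 CPM to 288 to 322 CPM. The table held 8 paralogs of the 10 genes, these and those named above included. Of the 8, 2 rose, 3 fell and 3 did not pass, beside 27.7% of all genes that rose and 28.8% that fell.

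ANKRD1 (ENSG00000148677, chr10:90912096-90921276, minus strand), an ankyrin repeat protein found in the nucleus and at the sarcomere of muscle and often used as a YAP target, was read at 2.76, 2.18 and 2.56 CPM in DMSO and at 1.51, 2.93 and 3.34 CPM in MPM-1. MPM-1 replicate 1 was the lowest of all 6 libraries and the other two MPM-1 libraries the highest. The log2 difference was 0.06 (95% interval -0.66 to 0.77, adjusted p = 0.897 in edgeR), so folds from 0.632 to 1.71 lie within the interval at these counts of 46 to 112 per library. The sign turned with totals alone (-0.089).

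FJX1 (ENSG00000179431, chr11:35618419-35620868, plus strand), the human relative of the fly gene four-jointed, whose product modifies atypical cadherins upstream of Hippo, was read at 2.82, 6.99 and 6.95 CPM in DMSO and at 0.361, 1.04 and 0.715 CPM in MPM-1. In counts these were 93, 302 and 277 against 11, 32 and 24. DMSO replicate 1 stood well below the other two DMSO libraries and still above every MPM-1 library. FJX1 fell, with a log2 fold change of -2.98 (SE 0.45, 95% interval -4.00 to -1.96, adjusted p = 4.40e-04 in edgeR), and its mean was 7.90-fold higher in DMSO. Without DMSO replicate 1 the log2 fold change was -3.30. It was the only one of the 10 genes to fall by more than 1 on the log2 scale.

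**Figure D3:**
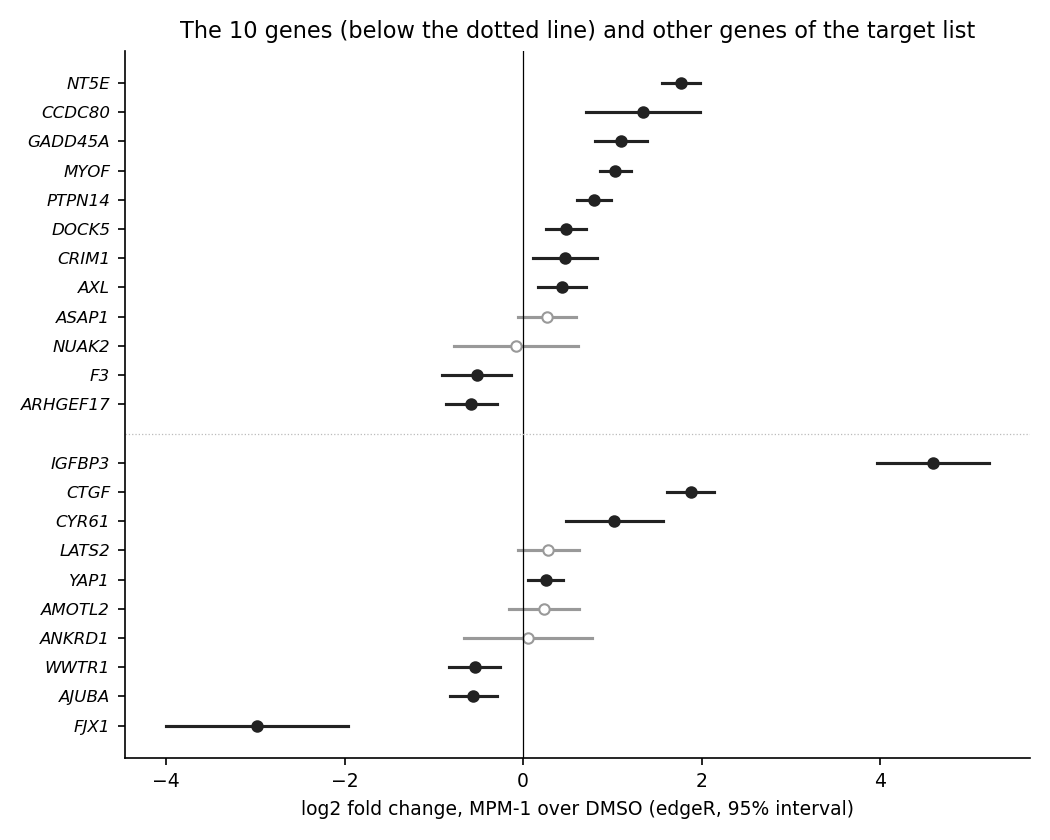
Log2 fold change of MPM-1 over DMSO (horizontal axis) with its 95% interval from edgeR, for the 10 genes below the dotted line and for the other genes of the target list above it (filled points passed the test, open points did not). IGFBP3 at 4.59 and FJX1 at -2.98 lie farthest from 0, and the intervals of ANKRD1, AMOTL2 and LATS2 include 0.

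The order of the genes by FPKM differed between treatments. In DMSO the order was YAP1, AJUBA, AMOTL2, LATS2, WWTR1, CTGF, CYR61, FJX1, ANKRD1 and IGFBP3. The libraries of AMOTL2 and LATS2, of WWTR1 and CTGF, of CYR61 and FJX1, and of FJX1 and ANKRD1 overlapped, so these neighbours did not differ beyond their spread. In MPM-1 the order was YAP1, IGFBP3, CTGF, AJUBA, AMOTL2, LATS2, CYR61, WWTR1, ANKRD1 and FJX1. There the libraries of IGFBP3 and CTGF overlapped, as did those of each neighbouring pair from AJUBA to CYR61. IGFBP3 went from the last place to the one after YAP1, and CTGF went from 3.85 ± 0.194 to 12.7 ± 1.17 FPKM (SD, n = 3).

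The MPM-1 libraries did not vary together over the 10 genes. As a difference from the mean log2 CPM of its group, MPM-1 replicate 1 was low for FJX1 (-0.76), ANKRD1 (-0.68), CYR61 (-0.54), AMOTL2 (-0.46), IGFBP3 (-0.37) and AJUBA (-0.20). The same library was high for LATS2 (0.35), CTGF (0.18), YAP1 (0.13) and WWTR1 (0.11). Over all genes it also stood apart from the other MPM-1 libraries on the second principal component (33.1 against -25.2 and -12.3), which held 9.48% of the variance. Its part in the results was not tested beyond leaving it out. Without it the log2 difference of AMOTL2 passed the test, that of CYR61 was 1.26 and that of ANKRD1 was 0.34 (adjusted p = 0.314 in edgeR).

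**Figure D4:**
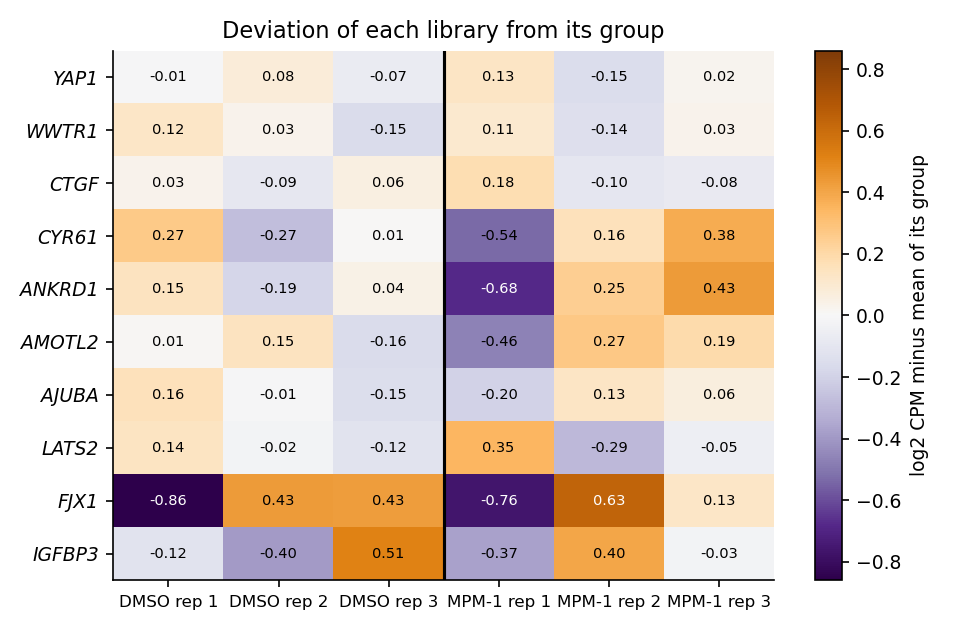
Deviation of each library (columns) from the mean log2 CPM of its own treatment, for each of the 10 genes (rows), with the colour bar in log2 CPM. MPM-1 replicate 1 is low for FJX1, ANKRD1, CYR61 and AMOTL2 and high for LATS2, and DMSO replicate 1 is low for FJX1 (-0.86).

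For YAP1 and for IGFBP3, the gene with the change of largest size, the genes with the most similar pattern over the 6 libraries were looked up. The log2 CPM of YAP1 was most like that of B3GALNT2 (Pearson r = 0.995), CPD (0.995) and PTK2 (0.992), and that of IGFBP3 was most like BET1 (0.999), RPS27 (0.999) and NGLY1 (0.998). With 6 libraries in 2 treatments these values mostly hold the difference between treatments.

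The rest of the pathway was described from lists of genes other than the 10. Except where stated, their counts are to be read against the 27.7% of all genes that rose and the 28.8% that fell. Of 23 kinases and scaffolds of the Hippo core in the table, 6 rose, 7 fell and 10 did not pass, shares close to those of all genes, with a median log2 fold change of -0.01. RASSF1, a scaffold that binds the STK3 and STK4 kinases, rose by 1.53 on the log2 scale (adjusted p = 1.07e-04 in edgeR), followed by WWC3 (0.50) and MAP4K3 (0.42). The call of MAP4K3 was lost with totals alone (0.27), in limma on FPKM and without DMSO replicate 1 or MPM-1 replicate 2 or 3, with log2 values of 0.22 to 0.57 over all alternatives. TAOK2, a kinase that activates STK3 and STK4, fell with a log2 fold change of -1.46 (adjusted p = 1.53e-05 in edgeR). FRMD6 and NF2 (merlin), membrane scaffolds of the pathway, fell with log2 fold changes of -1.39 and -0.60. With totals alone 3 genes of this list rose and 10 fell, beside 2589 and 4871 of all 12982 genes. In limma on FPKM 1 rose and 8 or 9 fell. On log2(FPKM + 0.1) with a mean of at least 1 FPKM, 2345 of all 11497 genes tested rose and 4042 fell.

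The TEAD factors did not move one way either, and of 6 listed factors and cofactors 2 rose, 2 fell and 2 did not pass, beside 27.7% and 28.8% of all genes, with a median log2 fold change of -0.16. TEAD1, at 95.3 to 107 CPM in DMSO and 119 to 146 CPM in MPM-1, rose by 0.42 on the log2 scale (adjusted p = 0.00366 in edgeR). TEAD2 and TEAD4 fell, with log2 fold changes of -0.58 and -0.48 (adjusted p = 0.00164 and 0.00171 in edgeR). The log2 difference of TEAD3 was 0.17 (adjusted p = 0.253 in edgeR). VGLL4, which competes with YAP for TEAD binding, rose by 0.90, from 31.0 to 35.8 CPM to 55.4 to 72.4 CPM.

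Of 19 proteins that bind YAP, TAZ or LATS, 9 rose and the other 10 did not pass in edgeR, with a median log2 fold change of 0.25. The largest rises among them were CTNNA1 (1.28, alpha-catenin, which holds YAP at junctions), WTIP (1.11) and YWHAH (1.00, which binds phosphorylated YAP). In the STRIPAK phosphatase complex, which dephosphorylates STK3 and STK4, 8 of 15 genes rose (27.7% of all genes did) and the other 7 did not pass in edgeR, with STRN (0.82), CTTNBP2NL (0.58) and SLMAP (0.55) in the lead. With totals alone 4 of the STRIPAK genes rose and 2 fell, and in limma on FPKM 4 rose and 1 fell. These are to be read against the counts of all genes given above for the same settings. Among 11 polarity proteins and atypical cadherins, 5 rose, led by PATJ (1.14), PARD6B (0.87) and PARD3 (0.80), and 4 fell, led by LLGL1 (-0.88), SCRIB (-0.75) and FAT1 (-0.53).

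**Figure D5:**
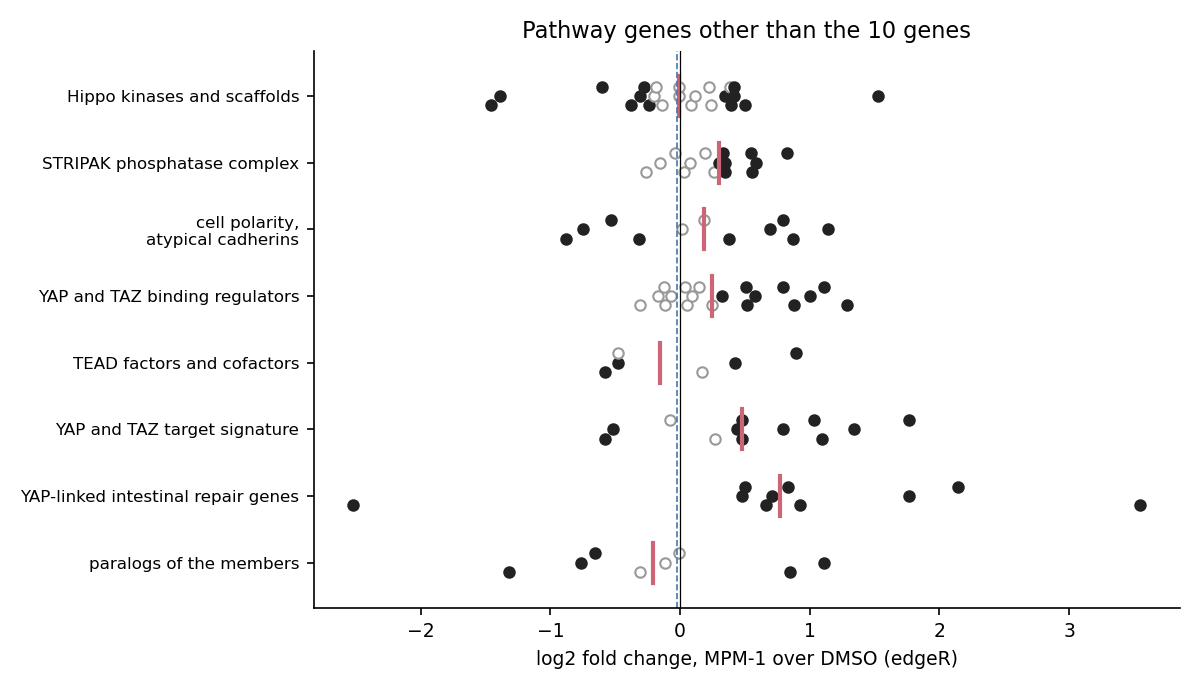
Log2 fold change of MPM-1 over DMSO (horizontal axis) of each gene of the pathway lists other than the 10 genes, with 1 point per gene, 1 row per list and a bar at the median of each list (filled points passed the test and open points did not, and the dashed line is the median of all genes). The STRIPAK genes and the binding regulators have medians of 0.30 and 0.25, and the core kinases and scaffolds spread on both sides of 0 around a median of -0.01.

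The wider target list, 22 genes of a commonly used YAP and TAZ signature, had 19 genes in the table, of which 11 rose, 3 fell and 5 did not pass, beside 27.7% and 28.8% of all genes. Its 12 genes other than those described above gave 8 rises and 2 falls, with a median log2 fold change of 0.48. The rises of AXL (0.44) and CRIM1 (0.47) were lost with totals alone, in limma on FPKM and without DMSO replicate 2. That of CRIM1 was also lost without DMSO replicate 3 or MPM-1 replicate 1 or 3. NT5E, an ectonucleotidase, rose by 1.77 on the log2 scale, from 46.998 to 50.6 CPM to 147 to 184 CPM (adjusted p = 1.06e-06 in edgeR). CCDC80 (1.34), GADD45A (1.10) and MYOF (1.04) also rose. CCDC80 was low, at 1.21 to 1.91 CPM in DMSO and 2.96 to 4.50 CPM in MPM-1. In FPKM it was almost unchanged, at 0.338 ± 0.197 in DMSO and 0.369 ± 0.0323 in MPM-1 (SD, n = 3). Its log2 values ran from 0.20 to 1.53 over all alternatives. ARHGEF17 fell by 0.58 and F3, tissue factor, by 0.52 (adjusted p = 0.0264 in edgeR). The call of F3 was lost without DMSO replicate 1 or 2 or MPM-1 replicate 1 or 2, with log2 fold changes of -0.67 to -0.43 over all alternatives. NUAK2 and ASAP1, with log2 differences of -0.08 and 0.27, did not pass. Of the 19 genes in the table, 13 could be matched to a promoter. GGAATG was present upstream of 3 of 7 that rose, 3 of 4 that did not pass and 0 of 2 that fell. Of all promoter windows 11.9% held it. AMOTL2 and AXL had 2 windows each, so this share per window is not an exact match for counts per gene.

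Of 10 genes linked to YAP in intestinal repair, 9 rose and 1 fell, beside 27.7% and 28.8% of all genes, with a median log2 fold change of 0.77. ANXA1, a phospholipid-binding protein and a marker of regenerating epithelium, rose by 3.55 on the log2 scale, from 39.2 to 52.1 CPM to 467 to 594 CPM (adjusted p = 2.44e-07 in edgeR). AREG, an EGF receptor ligand, rose by 2.14 and ANXA5 by 1.76. The exception was IL33, an alarmin cytokine, which fell with a log2 fold change of -2.52, from 333 to 399 CPM to 57.2 to 71.5 CPM (adjusted p = 4.70e-07 in edgeR).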

How the data were processed

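The authors deposited 1 table for the 6 libraries with whole-number counts per gene and FPKM, fragments scaled for transcript length and library size. Libraries were made from total RNA with an mRNA kit. The submitters' processing notes name HISAT2, DESeq2 and mm10, a mouse build, although the identifiers are human, and how reads were counted or whether strand was used is not given in the sources used here. Parts of YAP1, WWTR1, CTGF, AMOTL2 and AJUBA overlap exons of other genes that the table does not list, so their counts may hold reads of those genes. The authors' fold change and FDR columns were not used.

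Counts were analysed in R 4.3.3 with edgeR 4.0.16 (TMM scaling, quasi-likelihood test, Benjamini-Hochberg over 12982 genes, none removed by the filter), without covariates. CPM values are TMM-scaled. Logarithms used a prior count of 2, and intervals are at 95%. Alternatives used DESeq2 1.42.0, limma 3.58.1 on log2(FPKM + 0.1) or log2(FPKM + 1), other scalings, filters, a replicate block and each library left out. The constant added to FPKM shrinks the log2 fold change of genes of low FPKM, so that FJX1 was at -2.72 with 0.1 and at -1.35 with 1. Positions come from GENCODE release 29 and promoters from RefSeq. Named were all 10 genes, their paralogs, the cell type markers and TEAD1 to TEAD4. Named too were the 3 genes closest in pattern to YAP1 and to IGFBP3, and up to 3 largest rises and falls of each list. GADD45A, CCDC80, MYOF, NUAK2, ASAP1, AXL and CRIM1 were added after their values were seen. The 10 genes and all lists were chosen with earlier results of these data known.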

Additional observations from a re-analysis of the deposited data

How the results depend on the processing

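CTGF, CYR61, IGFBP3 and FJX1 kept their direction and their call under every alternative run, and AJUBA under all but the stricter rule, where YAP1, WWTR1 and AJUBA were not called. YAP1 lost its call with library size alone (log2 fold change 0.10), with the replicate block (0.25, adjusted p = 0.0544 in edgeR) and in limma on log2(FPKM + 0.1) (0.11, with or without the filter) and on log2(FPKM + 1) (0.10). WWTR1 lost it in limma on log2(FPKM + 0.1) (-0.41, with or without the filter). The sign of ANKRD1, never called, reversed with library size alone (-0.089) and in limma on log2(FPKM + 0.1) (-0.15, with or without the filter) and on log2(FPKM + 1) (-0.071). The cause was not tested. The log2 difference of the WWTR1 to YAP1 ratio was -0.79 in CPM against -0.53 in FPKM. For the LATS2 to LATS1 ratio it was 0.27 in CPM (exact permutation test, p = 0.3) against 0.06 in FPKM. Under the stricter rule 1 of the 10 genes was lower rather than 3, and of all genes 725 were higher and 1136 lower rather than 3596 and 3740. In limma on FPKM 2345 genes (log2(FPKM + 0.1)) or 2358 genes (log2(FPKM + 1)) were higher and 4042 or 4071 lower, so that 36.7% of calls were upward rather than 49.0%. With each library left out in turn, log2 fold changes lay between 0.20 and 0.35 for YAP1, -0.62 and -0.45 for WWTR1, 0.84 and 1.26 for CYR61, -0.16 and 0.34 for ANKRD1, 0.13 and 0.45 for AMOTL2, -0.63 and -0.45 for AJUBA, 0.11 and 0.44 for LATS2, -3.34 and -2.66 for FJX1 and 4.39 and 4.92 for IGFBP3. The number of the 10 genes that rose was 3 to 5, and 3 fell each time. The log2 difference of the LATS2 to LATS1 ratio was then -0.12 to 0.23. Same-numbered libraries deviated with correlations of 0.0214, 0.114 and -0.0737. With 3 libraries per group these values cannot settle whether the numbers pair the libraries. The replicate block gave 3475 genes higher and 3642 lower. Of the other genes named, TEAD1, WWC3, MAP4K3, FAT1, AXL and CRIM1 lost their call in limma on FPKM, and F3 with the replicate block. MAP4K3, AXL and CRIM1 lost it also with library size alone. WTIP and CCDC80 lay under the mean of 1 FPKM that the filter of limma asked for. They were called neither in its filtered forms, where they were not tested, nor in its unfiltered form. The lowest counts per library were those of FJX1 in MPM-1 (11 to 32), IGFBP3 in DMSO (42 to 80) and ANKRD1 (46 to 112).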
